A study of Homo sapiens with 2 samples.

Results

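Toll-like receptors (TLRs), the cytosolic receptors NOD1 and NOD2, and the signalling proteins MYD88 and RIPK2 were examined in HT-29, an established line of human colorectal adenocarcinoma cells. The 10 genes were TLR1, TLR2, TLR3, TLR4, TLR5, TLR6, MYD88, NOD1, NOD2 and RIPK2, out of 19775 genes that the array measured with a probe set naming 1 gene. They were chosen by gene family, in a list drawn up with earlier results of these arrays known, in which the log2 ratio of TLR5 was among the lowest. All 10 genes had such a probe set, 18 probe sets in all. The signals and log2 ratios below are therefore given as a description.

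The study transfected one sample with siIFITM1, a small interfering RNA (siRNA) directed at the mRNA of IFITM1, a membrane protein induced by interferon that blocks virus entry. The baseline sample received siLuc, an siRNA to firefly luciferase, which human cells do not encode. Both were HT-29 cells harvested 72 h after transfection, and both carried a transfected siRNA, so untransfected cells were not part of the comparison. Each siRNA was read on 1 array. The spread between replicates is therefore unknown, and no test was possible. No microbial ligand is named in the labels.

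Toll-like receptors recognise molecules that microbes share and pass the signal through adaptors such as MYD88 to NF-kappaB. TLR1, TLR2, TLR4, TLR5 and TLR6 act at the cell surface, and TLR3 reads RNA inside endosomes. NOD1 and NOD2 sense fragments of bacterial cell wall in the cytosol and signal through the kinase RIPK2. The lining of the colon lies beside dense bacteria, and responses through these receptors are normally restrained there.

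The signal of the IFITM1 probe set was 237 with siIFITM1 and 640 with siLuc, 37.1% of the baseline. The probe sets of IFITM2 and IFITM3 were lower too, with log2 ratios of -1.29 and -1.64. The probe sets of IFITM1, IFITM2 and IFITM3 all carry ID endings for probes shared between transcripts. Whether each reads its own gene alone was not tested. The median signal of all probe sets that are not controls was 59.7 on the siIFITM1 array and 63.9 on the siLuc array. Of 12 markers of colon epithelium, 9 lay above the 75th percentile of signal, while CDX1, CDX2 and GPA33 lay below the median. Of 8 measured markers of leukocytes and red cells 5 were past the median: LYZ, CD79A, CD14, ITGAM and HBB. LYZ, which encodes lysozyme, was the 1 above the 75th percentile. The log2 ratios of the others were -0.79 for CD79A, -0.33 for CD14, -0.30 for ITGAM and 0.59 for HBB. The pan-leukocyte marker PTPRC was below the median. The signals of the leukocyte and red cell markers summed to 21307 with siIFITM1 and 24801 with siLuc. LYZ alone made 20614 and 23964 of these. None of the 9 fibroblast and endothelial markers lay above the 75th percentile, and their signals summed to 914 with siIFITM1 and 781 with siLuc. LUM, which encodes a matrix proteoglycan, made the higher sum, with 386 with siIFITM1 and 132 with siLuc (log2 ratio 1.54). Without LUM the sum was 528 with siIFITM1 and 649 with siLuc, and the other markers past the median, COL1A1, DCN and PECAM1, were at -0.49, -0.51 and -0.24. The part of other cells in the results below was not tested.

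Promoter windows of 3 members are shown first: TLR5 and TLR6, for which every probe set was at least 2-fold lower with siIFITM1, and MYD88, which lay far above the median signal on both arrays. They come from RefSeq (GRCh38.p14) and hold the 150 bases before the annotated start, 5′ to 3′ on the gene's strand. A window was found for 8 of the 10 members. The TLR5 window is chr1:223143249-223143398 on the minus strand, the TLR6 window chr4:38856818-38856967 on the minus strand, and the MYD88 window chr3:38138511-38138660 on the plus strand. Capitals mark the letters GGGCGG (the GC box), GAAANNGAA (a shortened form of the interferon-stimulated response element) or GGACTTTCC (a form of the kappa-B site), searched on both strands.
TLR5: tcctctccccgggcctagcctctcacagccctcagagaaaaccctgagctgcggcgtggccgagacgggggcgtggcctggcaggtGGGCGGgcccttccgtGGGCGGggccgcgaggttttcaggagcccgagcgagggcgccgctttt
TLR6: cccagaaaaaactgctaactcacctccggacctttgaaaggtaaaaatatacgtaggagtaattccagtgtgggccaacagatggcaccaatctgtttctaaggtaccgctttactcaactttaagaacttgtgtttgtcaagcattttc
MYD88: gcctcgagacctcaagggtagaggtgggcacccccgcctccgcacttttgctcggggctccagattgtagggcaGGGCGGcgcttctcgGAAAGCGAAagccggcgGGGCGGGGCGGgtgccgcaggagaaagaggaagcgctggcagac
The TLR5 window held 2 GC boxes and the MYD88 window 3, of which a pair overlapped by 1 base. GC boxes also lay in the windows of TLR2, TLR4 and NOD1 and in a window of NOD2, but not in that of TLR3. The TLR6 window held none of the 3 motifs, and its share of G and C was 41.3%, against 72.0% for TLR5 and 68.7% for MYD88. The MYD88 window alone among those of the members held GAAANNGAA, 61 bases before the start. Among 35116 promoter windows of the same length, 36.8% held a GC box, 3.98% held GAAANNGAA and 0.214% held GGACTTTCC. The kappa-B form was found in 1 member window, that of TLR2. A match describes the letters of a window and is not evidence of binding.

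Of the 18 probe sets, 6 had a mean log2 signal at or above the median of all probe sets, a signal of 57.4. They belonged to MYD88 (1 probe set), NOD1 (2), RIPK2 (2) and TLR5 (1). Over all probe sets naming 1 gene, 56.0% were at or above that median. By brightest probe set 4 of the 10 member genes were, against 61.8% of all genes. Probe sets of MYD88 and RIPK2 were also above the 75th percentile, a signal of 393. The 11 other probe sets of the Toll-like receptors and the 1 of NOD2 were below the median. Detection calls were not used here, so signals below the median may not differ from background. Probe sets differ in how well they bind, so their signals do not rank the amounts of the transcripts.

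Taken array by array, 5 probe sets were above the array's own median on both arrays. With siLuc 8 were above it, and with siIFITM1 5. The 3 that were above it with siLuc only were the TLR5 probe set and both TLR6 probe sets. No member probe set was above it with siIFITM1 only.

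**Figure D1:**
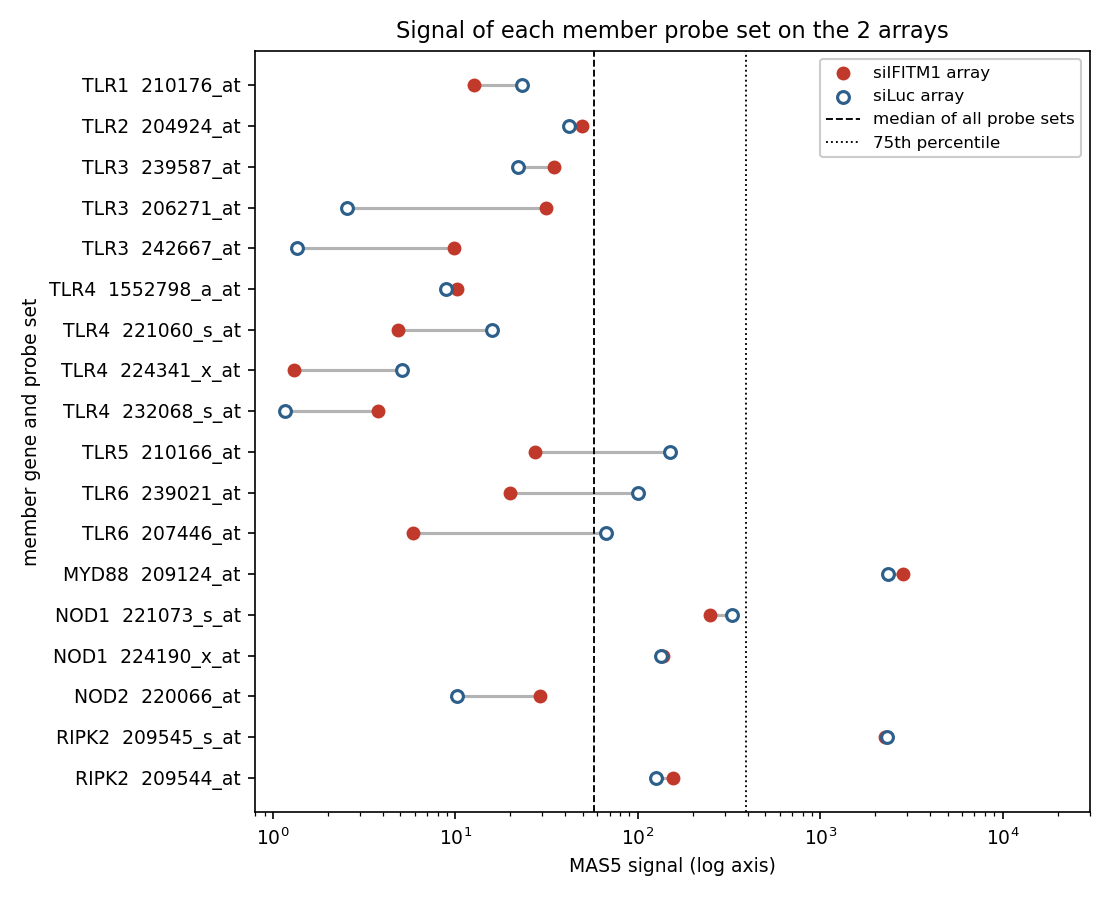
MAS5 signal (log axis) of each of the 18 member probe sets on the siIFITM1 array (filled) and the siLuc array (open), with dashed and dotted lines at the median (57.4) and 75th percentile (393) over all probe sets. TLR5 and both TLR6 probe sets lie right of the median with siLuc and left of it with siIFITM1, and both arrays lie right of it for MYD88, NOD1 and RIPK2.

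TLR5 binds flagellin, the protein of bacterial flagella, at the surface of gut epithelial cells. Its single probe set (210166_at) had a signal of 27.3 with siIFITM1 and 149 with siLuc, 18.3% of the baseline (log2 ratio -2.45). The siIFITM1 signal lay below the median of its array and the siLuc signal above it. With signals under 57.4 raised to that floor, TLR5 was 2.60-fold lower (log2 ratio -1.38). TLR5 was the only member of the 4 past the median filter that was at least 2-fold apart. Over all genes past that filter 3.03% were at least 2-fold apart and 2.01% were at least 2-fold lower. TLR5 lay just inside the filter, at percentile 52.1 of mean signal. The probe set of TLR2 (percentile 45.7) and one of TLR6 (percentile 45.4) lay just outside it. Among 1907 probe sets in the 5 percentile points above the median, 11.0% were at least 2-fold lower, and the 5th percentile of their log2 ratios was -1.35. These shares stand beside the count, and nothing is read from them, because TLR5 entered with its ratio known.

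TLR6 pairs with TLR2 to recognise diacylated lipopeptides of bacteria. Its probe set 239021_at had a signal of 20.0 with siIFITM1 and 100.4 with siLuc (log2 ratio -2.33). Its other probe set, 207446_at, had 5.83 with siIFITM1 and 67.0 with siLuc (log2 ratio -3.52). Both were lower with siIFITM1 by at least 2-fold, and both siIFITM1 signals lay far below the floor. Raised to the floor, the first was 1.75-fold lower and the second 1.17-fold lower, so the size of the difference rests on signals under the median. Among 1587 genes with exactly 2 probe sets, both below the median, 6.81% had both at least 2-fold lower.

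TLR1 and TLR2 complete the lipopeptide receptors, TLR2 being the shared partner of TLR1 and TLR6. In the RefSeq gene table TLR1 and TLR6 are next to each other on chromosome 4, with TLR10 on the other side of TLR1. The TLR1 probe set (210176_at) had a signal of 12.6 with siIFITM1 and 23.2 with siLuc (log2 ratio -0.88). The TLR2 probe set (204924_at) had 49.2 with siIFITM1 and 42.1 with siLuc (log2 ratio 0.23). Both genes were below the median on both arrays and less than 2-fold apart. Raised to the floor, they did not differ.

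TLR4 recognises lipopolysaccharide of Gram-negative bacteria, together with the co-receptors LY96 and CD14. All 4 of its probe sets were below the median on both arrays, with signals from 1.30 to 10.2 with siIFITM1 and from 1.16 to 16.0 with siLuc. Their log2 ratios took both signs, with 0.19 for 1552798_a_at, -1.72 for 221060_s_at, -1.98 for 224341_x_at and 1.71 for 232068_s_at. The probe sets therefore gave no common direction. LY96 was below the median as well, with a signal of 22.2 with siIFITM1 and 36.8 with siLuc.

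TLR3 binds RNA with paired strands, as many viruses make, and signals through the adaptor TICAM1 rather than MYD88. All 3 of its probe sets were higher with siIFITM1. The probe set 239587_at had a signal of 34.6 with siIFITM1 and 22.0 with siLuc (log2 ratio 0.66). The probe set 206271_at had 31.3 with siIFITM1 and 2.54 with siLuc (log2 ratio 3.62). The dimmest, 242667_at, had 9.83 with siIFITM1 and 1.35 with siLuc (log2 ratio 2.86). No TLR3 signal reached the median on either array, so with the floor applied the ratio of each was 0. Of 579 genes with exactly 3 probe sets, all below the median, 10.4% had all 3 higher.

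**Figure D2:**
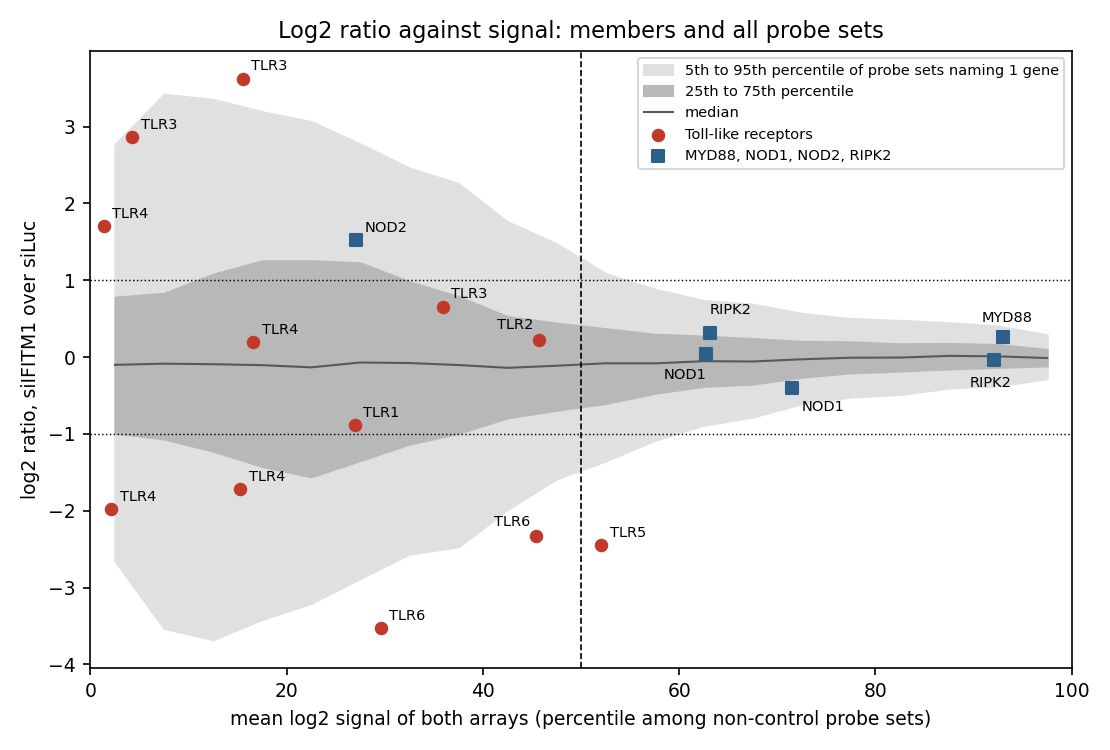
Log2 ratio (siIFITM1 over siLuc) of the 18 member probe sets against the percentile of mean log2 signal. Shading gives the 5th to 95th and 25th to 75th percentiles of all probe sets naming 1 gene, in steps of 5 percentile points; the dashed line is the median signal and dotted lines mark 2-fold. The spread widens below the median, where 12 of the members' probe sets lie, and the TLR3 probe set 206271_at (3.62) lies above the shading. TLR5 at -2.45 and both TLR6 probe sets lie below it.

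MYD88 is the adaptor that all of these Toll-like receptors except TLR3 use. Its probe set (209124_at) had a signal of 2834 with siIFITM1 and 2365 with siLuc, 1.20-fold higher (log2 ratio 0.26). It was above the 75th percentile on both arrays, where log2 ratios of probe sets that share a gene had an SD of 0.193. Of 12214 probe sets above that percentile, 0.327% were at least 2-fold apart, and neither of the 2 member probe sets there was.

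RIPK2, the kinase that NOD1 and NOD2 engage, had 2 probe sets above the median. The first, 209545_s_at, had a signal of 2263 with siIFITM1 and 2317 with siLuc, 97.7% of the baseline (log2 ratio -0.03). The other, 209544_at, had 156 with siIFITM1 and 125 with siLuc (log2 ratio 0.31). The signs differed, and both ratios were small beside the 2-fold line.

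NOD1 recognises a peptidoglycan fragment found mainly in Gram-negative bacteria. Its probe set 221073_s_at had a signal of 249 with siIFITM1 and 328 with siLuc (log2 ratio -0.40). The other, 224190_x_at, had 137 with siIFITM1 and 133 with siLuc (log2 ratio 0.04). Both carry ID endings for probes shared between transcripts, and they differed in sign. In this range of signal, from the median to the 75th percentile, log2 ratios of probe sets that share a gene had an SD of 0.496. Of 10810 probe sets there, 6.88% were at least 2-fold apart, and of the 4 member probe sets 1 was, that of TLR5.

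NOD2 recognises muramyl dipeptide, a unit of peptidoglycan, and variants of the gene predispose to Crohn's disease. Its probe set (220066_at) had a signal of 29.1 with siIFITM1 and 10.2 with siLuc (log2 ratio 1.52). Both signals were below the median, and with the floor applied the ratio was 0.

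Below the median 8 of the 12 member probe sets were at least 2-fold apart, 4 higher and 4 lower. Of all 18067 probe sets below the median that name 1 gene, 48.3% were at least 2-fold apart. There the SD among probe sets that share a gene was 1.66. Over the 10 genes, each represented by its brightest probe set, 3 were at least 2-fold apart: TLR5 and TLR6 lower and NOD2 higher. With no filter 20.0% of all 19775 genes were. The median log2 ratio of the 10 members was 0.08, against -0.03 over all genes. For the 4 members past the filter it was -0.22, against -0.02 over the 12225 genes that passed. These 4 were MYD88 (0.26), RIPK2 (-0.03), NOD1 (-0.40) and TLR5 (-2.45). TLR5 passed only through its siLuc signal, which takes part in its ratio, so nothing is read from this median.

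**Figure D3:**
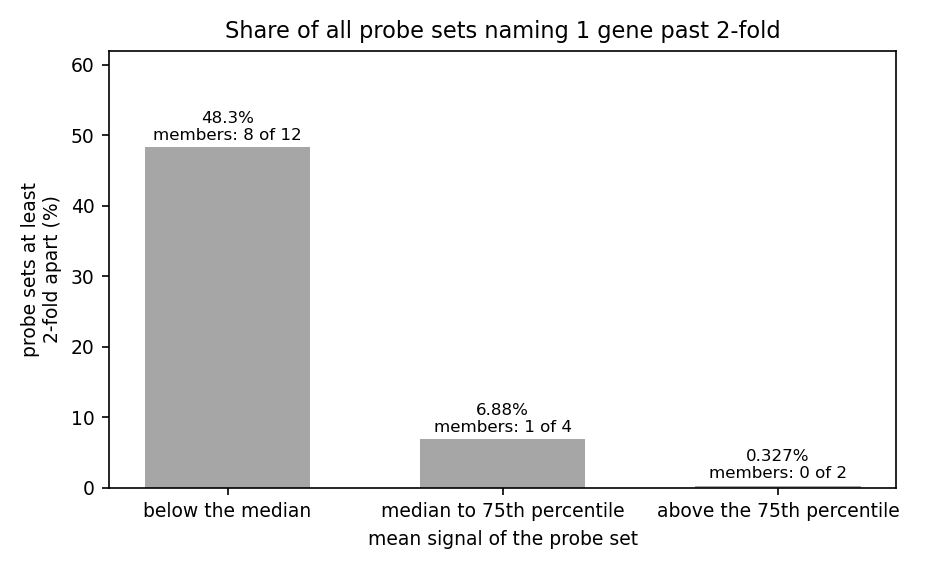
Share of all probe sets naming 1 gene that were at least 2-fold apart between the siIFITM1 and siLuc arrays (bars, %), by mean signal, with the count of member probe sets past the same line above each bar. The share is 48.3% below the median, 6.88% from the median to the 75th percentile and 0.327% above it.

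The rest of the pathway was read from 10 lists of 88 genes, of which 83 were measured and 57 lay at or above the median signal. Of these 57, 30 had a log2 ratio above 0 and 27 below 0, with a median of 0.00. With a gene read from its brightest probe set, 1 gene, CXCL8, was at least 2-fold apart, against 3.03% of all genes past the filter. Among all 113 probe sets of these lists past the filter, 1 was at least 2-fold higher, the brighter of CXCL8. Another 1, a probe set of IKBKB, was at least 2-fold lower, and its siIFITM1 signal was below the median. Over all probe sets naming 1 gene, 6.88% from the median to the 75th percentile and 0.327% above it were at least 2-fold apart.

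None of the other Toll-like receptor genes passed the filter. TLR7, which reads RNA in endosomes, had 2 probe sets that were lower. The brighter had a signal of 18.4 with siIFITM1, below the array's median, and 91.7 with siLuc, above it (log2 ratio -2.32). The dimmer had 1.69 with siIFITM1 and 12.9 with siLuc (log2 ratio -2.93), below the median on both arrays. TLR9, the receptor for unmethylated DNA, had 45.6 with siIFITM1 and 16.9 with siLuc, below the median on both arrays. The probe sets of TLR8 and of TLR10 took both signs.

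Among co-receptors and chaperones, 3 of 4 genes past the filter were below 0. CD14, a co-receptor for lipopolysaccharide, was at -0.33. HSP90B1, a chaperone that folds Toll-like receptors, was at -0.06 and -0.26. UNC93B1, which carries receptors to endosomes, was at 0.10 for its brightest probe set and -0.82 for another.

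Of the adaptors, TIRAP, which bridges TLR2 and TLR4 to MYD88, had a signal of 320 with siIFITM1 and 378 with siLuc (log2 ratio -0.24). All 4 TIRAP probe sets were lower, from -0.52 to -0.24. TICAM1, the adaptor of TLR3, was at 0.02, and SARM1 at -0.09, with a second probe set past the filter at -0.72. No adaptor was 2-fold apart.

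Kinases and ubiquitin ligases downstream numbered 16 past the filter, 10 above 0 and 6 below, with a median of 0.09. By their brightest probe sets the ones furthest from 0 were PELI2, a ubiquitin ligase of IRAK proteins (-0.64, with a signal of 57.9 with siIFITM1 and 90.0 with siLuc), the kinase IKBKE (0.32, with another probe set at -0.18) and the kinase IRAK2 (-0.26). IKBKB, a kinase that activates NF-kappaB, was at -0.19 for its brightest probe set and -0.11 for the next. Its dimmest, with a signal of 49.7 with siIFITM1 and 125 with siLuc, was at -1.33. Negative regulators were split 3 and 3. The deubiquitinases OTULIN and CYLD were at 0.35 and 0.25, with other probe sets of each below 0. Another CYLD probe set past the filter was at 0.93. SIGIRR, an inhibitory receptor, was at 0.16.

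Other cytosolic sensors showed no common direction either. Among inflammasome genes 4 of 7 were above 0, with the cytokine IL18 at 0.37 and the adaptor PYCARD at -0.22. NAIP, a sensor of cytosolic flagellin, was at -0.30. Its other probe sets, below the median in mean signal, were higher, at 2.10 and 3.34. Among nucleic acid sensors 3 of 5 were above 0. CGAS, the DNA sensor, had a signal of 553 with siIFITM1 and 820 with siLuc (log2 ratio -0.57), but a second probe set was at 0.66. RIGI, an RNA sensor, was at 0.33, with another probe set at -0.57. STING1, the adaptor of CGAS, was at -0.21 and -0.76. The 2 peptide transporters past the filter, SLC15A2 and SLC15A4, were at 0.07 and 0.00.

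All 3 interferon regulatory factors on the list (IRF3, IRF5 and IRF7) were below 0, as was the median over all genes past the filter (-0.02). IRF7 had a signal of 845 with siIFITM1 and 1195 with siLuc (log2 ratio -0.50), and IRF5 and IRF3 were at -0.19 and -0.06. A second IRF5 probe set past the filter was at -0.84. For IFNB1, the interferon beta gene on the list of target genes, the signal was 73.3 with siIFITM1 and 121 with siLuc (log2 ratio -0.72). Among probe sets of similar mean signal (percentiles 55 to 60), the 5th percentile of log2 ratios was -1.08.

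Target genes of these receptors ranged from -0.72 to 1.06, with 7 of 11 above 0 and a median of 0.21. CXCL8 and CXCL1, which attract neutrophils, had log2 ratios of 1.06 and 1.00. The signal of CXCL1 was 826 with siIFITM1 and 414 with siLuc, just under a 2-fold difference. The second CXCL8 probe set was under 2-fold, with a signal of 429 with siIFITM1 and 244 with siLuc (log2 ratio 0.82). The 2 CXCL8 probe sets both carry ID endings for shared probes.

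**Figure D4:**
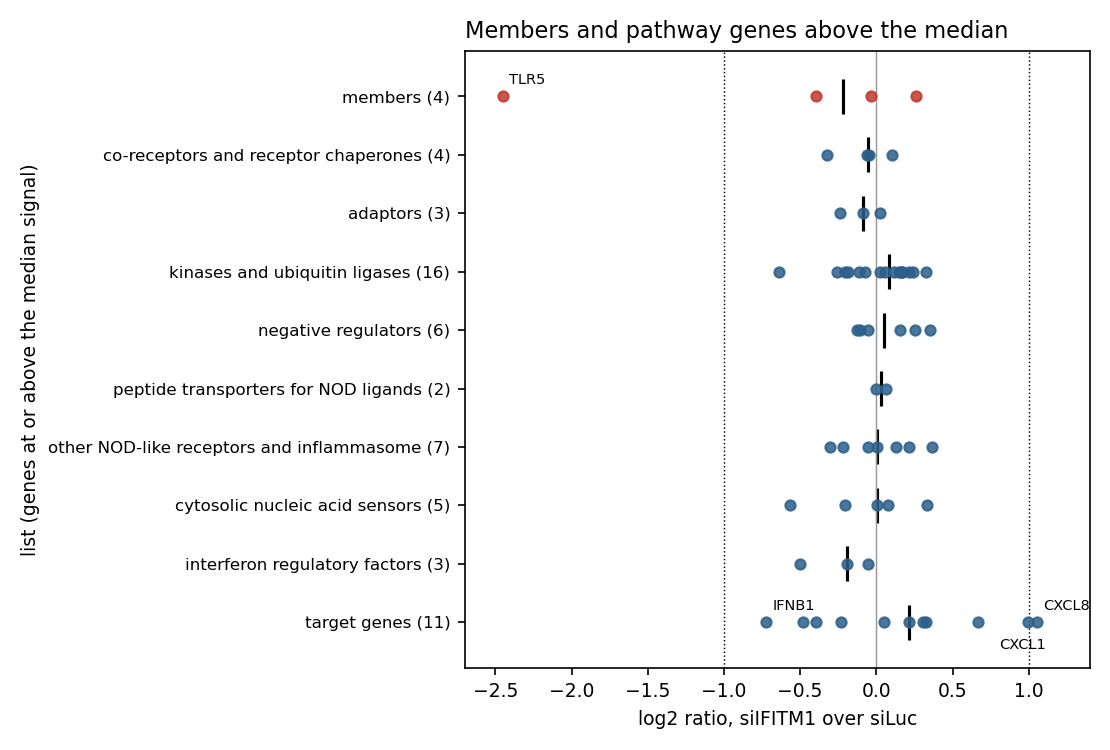
Log2 ratio (siIFITM1 over siLuc) of the members (top) and of the listed pathway genes with a mean signal at or above the median, 1 point a gene at its brightest probe set, with a black bar at each list's median and dotted lines at 2-fold. TLR5 at -2.45 and CXCL8 at 1.06 are the points past 2-fold, and the count of genes stands after each list's name.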

How the data were processed

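RNA from the 2 HT-29 samples was amplified and read on 1 single-colour array each, per the labels' protocols. The deposited values are intensities, MAS5 signals on a linear scale, per the submitters' processing notes, which name no version. Trimmed by 2% at either end, the mean signal was 500.1 on both arrays.

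Members were matched by symbol, updated through Entrez identifiers, among 41091 probe sets that name 1 gene. Signals were taken to log2 with no further scaling. A gene's brightest probe set represented it, and it passed the filter if the mean log2 signal was at or above the median over 54613 non-control probe sets. With 1 array per siRNA there was no test, and the number of arrays limits the precision. The members and lists were chosen with earlier results of these data known. Of each list, up to 3 genes past the filter with the largest absolute ratio were named, plus any 2-fold apart. LY96, TLR7, TLR8, TLR9, TLR10, IKBKB, CD79A, ITGAM, HBB and the fibroblast and endothelial markers were added after their values were seen. So were the motifs and the shares among dim genes with several probe sets. The calculation was tested on simulated data. Python 3.11.15, numpy 2.4.6, pandas 2.3.3, statsmodels 0.14.6 and matplotlib 3.10.9 were used.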

Additional observations from a re-analysis of the deposited data

How the results depend on the processing

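Alternatives were median centring, quantile normalization, subtraction of a loess trend (span 0.3), a pseudocount of 32, a floor at the median signal, the mean over probe sets, omission of _x_at and _s_at probe sets, other fold lines and other filters. TLR5 ranged from -2.45 to -1.38 over the 7 applied to it, and TLR6 from -2.93 to -0.81. The mean over probe sets and the omission of shared endings could not change TLR5, which has a single probe set. A pseudocount or floor cannot reverse a sign, so nothing is read from the signs of TLR5 and TLR6. MYD88 ranged from 0.25 to 0.29 and NOD1 from -0.40 to -0.18 over 6, since both its probe sets carry shared endings. RIPK2 ranged from -0.05 to 0.31 and TLR4 from -0.45 to 0.28, so neither kept its sign. Of the members, 0 were 2-fold apart with the filter at the 75th percentile and 3 with no filter, against 1 as reported. The median over members was -0.22 as reported, 0.08 with no filter, 0.11 at the stricter filter and 0.26 without shared endings. Member probe sets above the 75th percentile numbered 2. Pathway genes 2-fold apart numbered 2 after centring, quantile normalization or loess, 4 with the mean over probe sets, 15 with no filter and 0 without shared endings. CXCL8 drops out of the last, since both its probe sets carry shared endings. The mean takes in probe sets below the median. CXCL8 was not among the 4, since its probe sets, at 1.06 and 0.82, average under 2-fold. After centring, CXCL1 passed the 2-fold line, since it lay just under it and the median subtracted was -0.03. The causes of the other shifts were not tested. No paired analysis was possible because each siRNA had 1 array. Signals below the median limit every ratio of the dim receptors.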
